A study of Mus musculus with 6 samples.

Results

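The CDK inhibitor genes Cdkn1a, Cdkn1b and Cdkn1c of the CIP family, Cdkn2a, Cdkn2b, Cdkn2c and Cdkn2d of the INK4 family, and Cdkn3 were examined in long-term haematopoietic stem cells (HSCs) with high or low Asrij. They were chosen by gene symbol, and all 8 were found among the 49997 gene symbols of the deposited count table. Asrij is the protein encoded by Ociad1. The name of the deposited counts holds the letters ArjKI, which the labels do not explain. The cells were sorted from the bone marrow of 4-month-old C57BL/6J mice into an Asrij high and an Asrij low population, with 3 RNA-seq libraries in each, and both populations share strain, age, tissue and the long-term HSC label. The labels name no allele besides the strain, no treatment, no purity of the sort and no reporter or antibody by which Asrij was read, and do not say whether each library stems from its own mice, so the p-values below reflect only how far these libraries vary, which may be technical.

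Cyclin-dependent kinases (CDKs) drive the cell cycle when bound to a cyclin. INK4 proteins bind CDK4 and CDK6 and keep them from D-type cyclins, whereas CIP proteins bind whole cyclin-CDK complexes, above all those of CDK2. Both hold the retinoblastoma proteins in the form that represses E2F factors, and in bone marrow they are known for keeping stem cells out of the cycle. Cdkn3 carries the family's symbol but encodes a phosphatase that removes the activating phosphate from CDK2 and belongs to neither family by structure.

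Of the 6 members with enough counts to test, 2 were higher and 4 were lower in Asrij high. Cdkn2c and Cdkn3 rose, whereas all 3 CIP genes and Cdkn2d fell, and for each of the 6 genes the Asrij high and Asrij low libraries did not overlap. The background was broad. With edgeR's quasi-likelihood test and an adjusted p under 0.05, 39.4% of the 21445 genes tested were called, 21.7% as higher and 17.7% as lower. The groups did not overlap for 55.0% of genes, 30.2% in the higher and 24.8% in the lower direction. Each tested member had at least 61 counts in every library, so none entered the test through one population alone. The other two members, Cdkn2a and Cdkn2b, were close to absent and were not tested.

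Sequence before the start sites is shown for a member that rose (Cdkn3) and members that fell (Cdkn1b, Cdkn1a). Sites known to serve cell cycle and p53 control can thus be seen beside the direction of these genes only. RefSeq (GRCm38.p6, the assembly behind mm10) gave start sites for 7 of the 8 members. Each line holds the 250 bases before a start site in RefSeq, 5′ to 3′ on the gene's strand. Annotated starts differ: the last 80 bases of the Cdkn3 window lie inside the gene as RefSeq's outermost start gives it, and the last 3 of the Cdkn1a window lie in a GENCODE M21 exon. The first Cdkn2c window and the Cdkn2d window are not shown, because 250 and 198 of their bases lie in GENCODE exons of these genes. The window of a second Cdkn2c start, also not shown, lies with all 250 bases inside the gene, 13 of them in an exon. Capitals mark, on either strand, CCAAT, the GC box GGGCGG, the CHR element TTTGAA of cell cycle genes, and the p53 core pair, CATG followed by CATG with 6 bases between, with no overlap among the matches shown.
Cdkn3 (chr14:46760291-46760540, plus strand): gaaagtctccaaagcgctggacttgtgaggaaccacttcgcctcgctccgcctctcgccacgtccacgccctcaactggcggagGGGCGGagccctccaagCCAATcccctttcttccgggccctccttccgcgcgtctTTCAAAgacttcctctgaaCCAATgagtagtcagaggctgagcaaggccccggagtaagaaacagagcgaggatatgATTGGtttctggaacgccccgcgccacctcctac
Cdkn1b (chr6:134920151-134920400, plus strand): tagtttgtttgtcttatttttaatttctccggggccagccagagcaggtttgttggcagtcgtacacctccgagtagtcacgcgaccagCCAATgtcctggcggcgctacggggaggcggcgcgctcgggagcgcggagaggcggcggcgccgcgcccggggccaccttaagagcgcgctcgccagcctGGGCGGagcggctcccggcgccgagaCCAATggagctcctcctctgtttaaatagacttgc
Cdkn1a, upstream start (chr17:29090729-29090978, plus strand): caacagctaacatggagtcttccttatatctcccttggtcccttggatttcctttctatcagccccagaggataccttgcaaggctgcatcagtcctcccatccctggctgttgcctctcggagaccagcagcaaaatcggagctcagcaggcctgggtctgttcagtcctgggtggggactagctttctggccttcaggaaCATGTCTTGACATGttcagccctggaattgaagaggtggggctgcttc
Among 32851 RefSeq windows of this length, 33.8% held CCAAT, 32.7% GGGCGG, 16.0% TTTGAA and 0.49% the p53 pair. Cdkn3 held 3 CCAAT matches, 1 CHR and 1 GC box, and Cdkn1b held 2 CCAAT and 1 GC box. The CCAAT match of Cdkn3 at 34 to 30 bases before the start used here lies inside the gene by the outermost RefSeq start. The p53 pair stood in the window of the upstream Cdkn1a start, 48 to 35 bases before it. The E2F forms TTTCGCGC, TTTGGCGC, TTTCCCGC and TTTGCCGC, found in 1.86% of windows, were in none of the windows shown. The members had 10 windows, and some of those not shown also held matches. The windows of the second Cdkn2a start and the second Cdkn2c start held no match. A Cdkn2b window held 1 CHR, and a Cdkn2a window held 1 E2F form and 2 GC boxes. The first window of Cdkn2c, which rose, held 3 GC boxes but no CHR and no CCAAT. The window of Cdkn2d, which fell, held 1 CCAAT and 3 GC boxes. The window of the second Cdkn1a start held 2 GC boxes and no p53 pair. All these matches describe letters only.

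Library totals were 62732782 to 72855125 counts in Asrij high and 24707012 to 46240743 in Asrij low. Gene levels are in CPM, that is, counts relative to the TMM-corrected library total. They are given as mean ± SD with n = 3 per group unless given per library, and fold changes are Asrij high over Asrij low. Ociad1, the check of the sort, was at 80.3 ± 5.76 CPM in Asrij high cells, against 51.6 ± 5.72 CPM in Asrij low cells (log2 0.64 ± 0.16 SE, edgeR adjusted p = 0.0115). Its call was lost under library totals (0.133), upper quartile factors (0.0834) and without Asrij high replicate 1 (0.0831). Over all genes 4655 were higher and 3797 lower, but scaling by library totals gave 3270 and 4856 and upper quartile factors gave 3447 and 5192, and either scaling moved the median over all genes by -0.27 on the log2 scale. Fold changes are therefore relative to TMM scaling. None of the 6 tested members changed direction under any of these. The 12 HSC markers were all detected, with a summed level of 426 to 699 CPM in Asrij high and 1260 to 1480 CPM in Asrij low, and 9 fell and 0 rose. Asrij high replicate 2 (699 CPM) lay nearest to Asrij low on this sum, and Asrij low replicate 3 had 81400 CPM of 13 erythroid markers, against 27900 and 11600 CPM in replicates 1 and 2 and 5300 to 9080 CPM in Asrij high.

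Markers of other cell types also moved with the populations. The 12 neutrophil and monocyte markers summed to 3600 to 4130 CPM in Asrij high and 544 to 2320 CPM in Asrij low, and 5 of them rose and 2 fell. These counts were 2 and 0 without Asrij high replicate 1, and 3 and 1 without Asrij high replicate 2 or 3 or without the count filter. The 8 macrophage markers (39.2 to 46.8 CPM in Asrij high, 76.7 to 233 CPM in Asrij low), the 10 B lineage and plasma cell markers (17.7 to 25.8 CPM in Asrij high, 87.7 to 236 CPM in Asrij low) and the 12 mesenchymal and endothelial markers (38.5 to 118 CPM in Asrij high, 331 to 911 CPM in Asrij low) were lower in Asrij high, with 6, 8 and 10 falls and 0 rises. The 10 mesenchymal and endothelial falls were 5 without Asrij high replicate 1 and 6 without the count filter. Mast cell and basophil markers summed to 64.7 to 312 CPM in Asrij high and 382 to 687 CPM in Asrij low, megakaryocyte markers to 328 to 1040 CPM in Asrij high and 496 to 761 CPM in Asrij low, and T and NK cell markers to 0.441 to 3.05 CPM in Asrij high and 5.47 to 8.53 CPM in Asrij low, with 3, 1 and 1 falls and 0 rises. Gata2 alone made up most of the mast cell and basophil sum, with 60.2 to 304.5 CPM in Asrij high and 372.5 to 671.1 CPM in Asrij low. The 3 mast cell and basophil falls were 0 without Asrij high replicate 1 or Asrij low replicate 2, and 1 without Asrij high replicate 3, Asrij low replicate 1 or the count filter. The megakaryocyte fall was lost without Asrij low replicate 1, with 3 falls without Asrij high replicate 2 and 1 rise without Asrij high replicate 3. The T and NK fall was lost without Asrij high replicate 1 or 2, Asrij low replicate 1 or the count filter, with 2 falls without Asrij low replicate 2 or 3. Of the erythroid markers 5 rose and 5 fell, and 0 falls were called when any single Asrij high library was left out, without the count filter or by limma-voom. Only Trac was at 0 in every library of a population, that of Asrij low, while other markers were at 0 in some libraries. The part of these cell types in the members' differences was not tested. In bulk RNA, fewer cells of a type and less RNA per cell cannot be told apart.

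The CIP genes were lower in Asrij high, and Cdkn1c fell farthest. Cdkn1c encodes p57, the CIP protein most tied to quiescence of HSCs, and is imprinted, with expression from the maternal copy. It lies on chromosome 7 (143458339 to 143461050, GENCODE M21, minus strand). It had 1.67, 3.25 and 1.71 CPM in Asrij high replicates 1 to 3 and 16.3, 16.0 and 18.1 CPM in Asrij low replicates 1 to 3. The Asrij low libraries lay close together and far above all Asrij high libraries, among which replicate 2 was highest. The difference was 7.58-fold (log2 -2.92 ± 0.35 SE, edgeR adjusted p = 0.000475), and it was called under every alternative tried, at log2 -3.27 to -2.81. GENCODE lists an antisense gene, Gm44732, over Cdkn1c exons, and the strand setting of the counting is not given in the sources used here, so reads of that gene could not be told apart.

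Cdkn1b encodes p27, which inhibits CDK2 complexes and also helps CDK4 and CDK6 assemble with D cyclins. On chromosome 6 (134920401 to 134925513, plus strand), it had more CPM than any other member in Asrij low. It had 40.0, 50.1 and 40.5 CPM in Asrij high and 83.6, 71.3 and 68.3 CPM in Asrij low. Replicate 2 was again the highest Asrij high library, still below the lowest Asrij low library. The gene was 1.71-fold lower (log2 -0.77 ± 0.17 SE, edgeR adjusted p = 0.0069), and it kept its call under all 14 alternatives (adjusted p 0.000169 to 0.0387).

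Cdkn1a encodes p21, the inhibitor that p53 induces after DNA damage. It lies on chromosome 17 (29090976 to 29100727, plus strand) and was low in both populations, with 2.08, 3.25 and 2.20 CPM in Asrij high and 4.54, 6.62 and 5.13 CPM in Asrij low. The highest Asrij high library was again replicate 2, and it stayed below the lowest Asrij low library. The difference was 2.16-fold (log2 -1.11 ± 0.39 SE) and only just past the threshold (edgeR adjusted p = 0.046). It was not called without Asrij low replicate 1, 2 or 3 (0.0677, 0.11 and 0.0531), without Asrij high replicate 1 or 3 (0.145 and 0.146) or without a filter on low counts (0.108), and its adjusted p ran from 0.00827 to 0.146 over alternatives. GENCODE also places an uncharacterised transcript on the opposite strand over its exons.

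**Figure D1:**
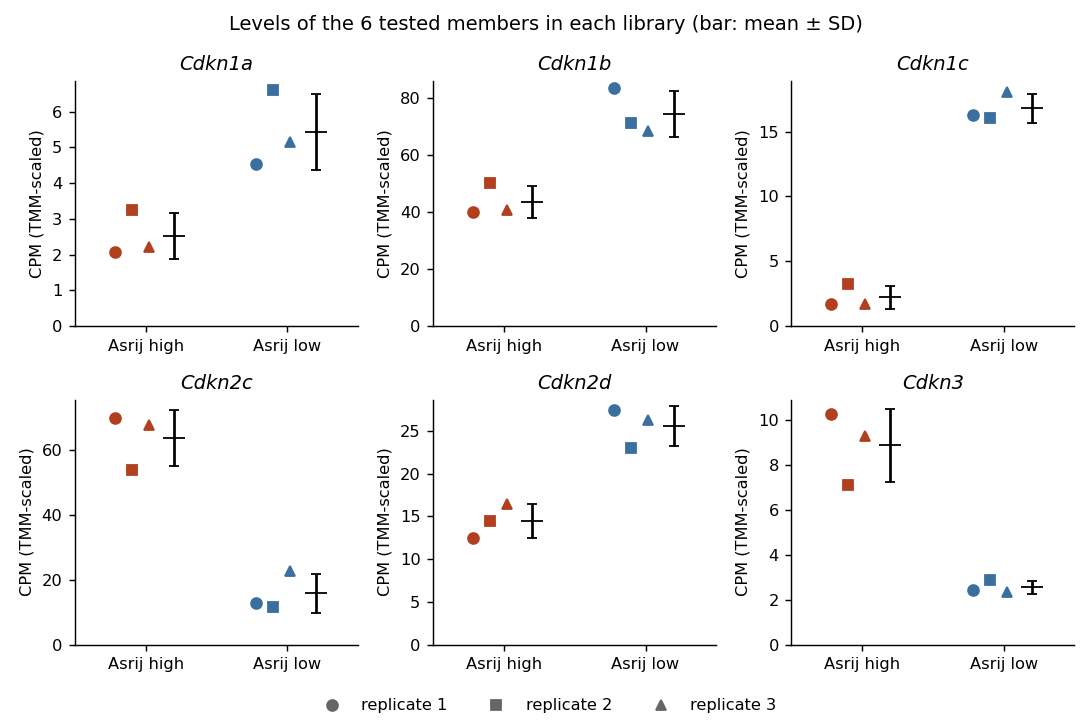
Levels of the 6 tested CDK inhibitor genes in CPM with TMM scaling, Asrij high at the left and Asrij low at the right of each panel, 1 point per library with its replicate shown by shape, and mean ± SD (n = 3) beside the points. Cdkn1a, Cdkn1b, Cdkn1c and Cdkn2d were lower and Cdkn2c and Cdkn3 higher in every Asrij high library than in any Asrij low library.

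The INK4 genes split. Cdkn2c encodes p18, whose loss in mice is known to favour self-renewal of HSCs. It lies on chromosome 4 (109660876 to 109667189, minus strand). It had 69.9, 53.9 and 67.8 CPM in Asrij high and 12.9, 11.6 and 22.7 CPM in Asrij low. Asrij low replicate 3 stood above the other two Asrij low libraries, and Asrij high replicate 2 was the lowest of its group. The gene rose 4.06-fold (log2 2.02 ± 0.28 SE, edgeR adjusted p = 0.000832) and was called under all alternatives, at log2 1.74 to 2.46. In a fit lacking both Asrij low replicate 3 and Asrij high replicate 2, the 6 members still gave 2 higher and 4 lower calls.

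Cdkn2d encodes the INK4 protein p19Ink4d, which is unrelated to the p19Arf product of Cdkn2a. On chromosome 9 (21288410 to 21291407, minus strand), it had 12.5, 14.4 and 16.5 CPM in Asrij high and 27.4, 23.0 and 26.3 CPM in Asrij low. Here the Asrij high library nearest to Asrij low was replicate 3, while replicate 2 was nearest for the 5 other tested members. The gene was 1.77-fold lower (log2 -0.82 ± 0.22 SE, edgeR adjusted p = 0.0142). The call was lost without Asrij high replicate 1 (0.0631) or Asrij low replicate 1 (0.0581), with a range of 0.000961 to 0.0631 over alternatives, and without either of these libraries only 2 members were called lower.

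Cdkn2a and Cdkn2b, neighbours on chromosome 4, were at the edge of detection. Cdkn2a encodes p16Ink4a and, from another reading frame, p19Arf, which counts per gene cannot separate, and in HSCs it is known to be silenced by the Polycomb protein BMI1. It had 0 counts in all Asrij high libraries, and 10, 0 and 0 counts in Asrij low replicates 1 to 3. Cdkn2b, which encodes the TGF-beta-induced inhibitor p15, had 0, 4 and 10 counts in Asrij high and 0 in each Asrij low library. Set against 3 counts summed over the group that had 0, Cdkn2a was 5.64-fold lower and Cdkn2b 2.76-fold higher in Asrij high. These ratios take the observed counts of the other group as exact, so they are not bounds. They allow for counting error only in the group at 0 and rest on 1 and 2 libraries. Without the filter neither was called by edgeR (adjusted p = 0.23 for Cdkn2a and 0.262 for Cdkn2b). The noncoding gene Gm12610, which overlaps Cdkn2b in RefSeq, had 0, 0 and 2 counts in Asrij high and 0, 12 and 0 in Asrij low. At this depth the test detected no difference in either gene.

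Cdkn3, on chromosome 14 (46760541 to 46771669, plus strand), was the other member that rose. It had 10.3, 7.10 and 9.30 CPM in Asrij high and 2.42, 2.87 and 2.36 CPM in Asrij low. The Asrij low libraries were tightly grouped, and the lowest Asrij high library, replicate 2, was well above them. The rise was 3.48-fold (log2 1.80 ± 0.33 SE, edgeR adjusted p = 0.00296) and was called under all 14 alternatives (adjusted p 3.22e-06 to 0.0201).

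Each gene was also taken as a share of its family's summed counts, which does not depend on scaling between libraries. Cdkn1c made up 4.47% ± 1.1 of CIP counts in Asrij high (3.82%, 5.74% and 3.86% in replicates 1 to 3) and 17.5% ± 2.10 in Asrij low (15.6%, 17.1% and 19.8%). Cdkn1b made up 90.4% ± 1.62 in Asrij high and 76.9% ± 2.83 in Asrij low. Cdkn1a made up 5.15% ± 0.527 in Asrij high and 5.67% ± 1.35 in Asrij low, with overlapping libraries. In the INK4 family, Cdkn2c held most counts in each Asrij high library and Cdkn2d in each Asrij low library. Cdkn2c made up 81.3% ± 3.15 of counts in Asrij high (84.9%, 78.8% and 80.3%) and 37.3% ± 7.88 in Asrij low (31.9%, 33.6% and 46.3%), and Cdkn2d 18.6% ± 3.09 in Asrij high and 62.6% ± 7.73 in Asrij low. Shares of a family sum to a whole, so these are not separate results.

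The Cdkn2c to Cdkn1c count ratio sets the riser with the most CPM against the member that fell farthest. Its log2 value was 5.38, 4.05 and 5.30 in Asrij high and -0.33, -0.46 and 0.33 in Asrij low. The mean difference of 5.06 corresponded to 33.4-fold, and the lowest Asrij high library was far above the highest Asrij low library. The 2-sided exact permutation test gave p = 0.1 for this ratio and for the shares of Cdkn1b, Cdkn1c, Cdkn2c and Cdkn2d, the smallest p that 3 libraries against 3 allow (adjusted p = 0.16 over 8 tests). The same exact test gave p = 0.7 for the share of Cdkn1a, 1 for Cdkn2a and 0.4 for Cdkn2b (adjusted 0.8, 1 and 0.533). The pair was picked with its values known. The difference in mean log2 ratio between the populations stayed between 4.83 and 5.49 when single libraries were left out.

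**Figure D2:**
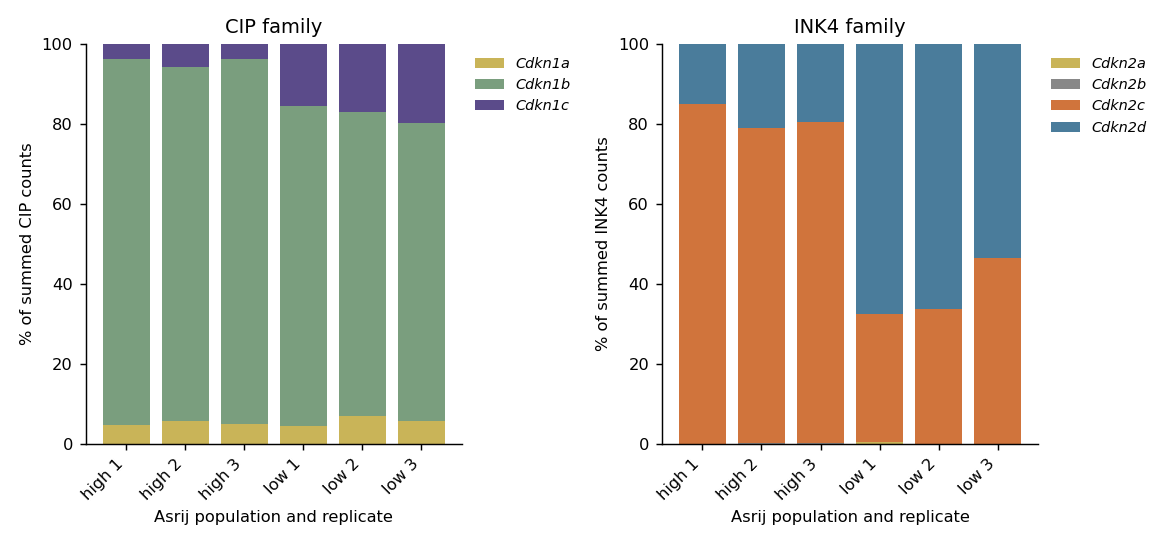
Share of each gene in the summed counts of the CIP family (left) and the INK4 family (right), in percent, 1 stacked bar per library with the Asrij high libraries first. Cdkn1c took 3.82% to 5.74% of CIP counts in Asrij high and 15.6% to 19.8% in Asrij low, and Cdkn2c took 78.8% to 84.9% of INK4 counts in Asrij high and 31.9% to 46.3% in Asrij low.

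Summed over members, CIP genes had 48.3 ± 7.25 CPM in Asrij high cells, against 96.6 ± 6.87 CPM in Asrij low cells, a ratio of 0.499. INK4 genes had 78.4 ± 8.70 CPM in Asrij high cells, against 41.4 ± 7.27 CPM in Asrij low cells, a ratio of 1.89. The sum over all 8 members was 132 to 138 CPM in Asrij high and 131 to 147 CPM in Asrij low. These sums weigh long transcripts more than short ones.

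To order the members, levels were divided by the exon length in GENCODE M21 (CPM per kb), since the annotation used for counting is not given in the sources used here. In Asrij high, Cdkn2c ranked first at 23.8 ± 3.23 CPM per kb, above Cdkn1b (9.56 ± 1.25) and Cdkn2d (9.19 ± 1.28), whose libraries overlapped. Cdkn3 (3.75 ± 0.685) came next, then Cdkn1c (1.09 ± 0.441) and Cdkn1a (0.706 ± 0.182), which overlapped. In Asrij low, Cdkn1b (16.3 ± 1.78 CPM per kb) and Cdkn2d (16.3 ± 1.48) led and overlapped. Cdkn1c (8.24 ± 0.541) and Cdkn2c (5.87 ± 2.26) followed and overlapped, above Cdkn1a (1.53 ± 0.301) and Cdkn3 (1.08 ± 0.119). Cdkn2c thus ranked 1 of 8 in Asrij high and 4 of 8 in Asrij low, whereas Cdkn1c ranked 5 of 8 in Asrij high and 3 of 8 in Asrij low.

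**Figure D3:**
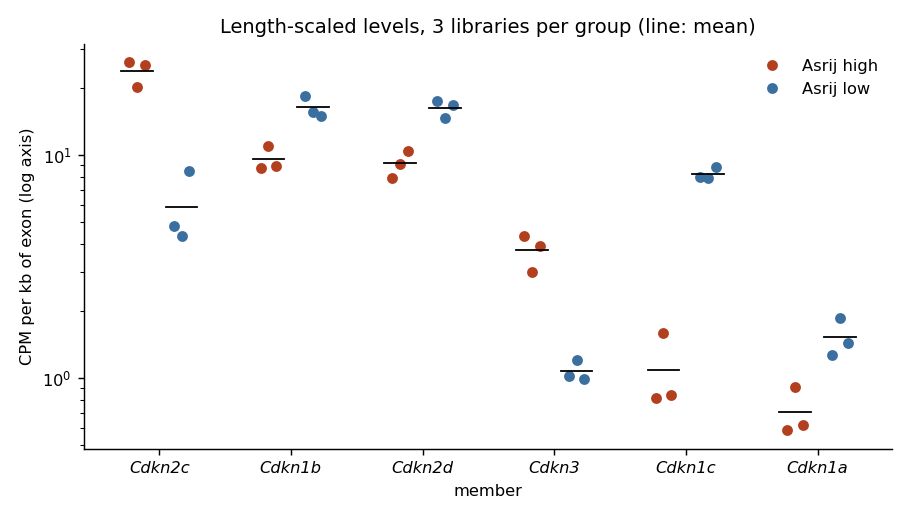
Levels of the 6 tested members in CPM per kb of exon on a log axis, Asrij high left of Asrij low for each gene, 1 point per library and a line at the mean of 3. Cdkn2c leads in Asrij high at 23.8 CPM per kb, while Cdkn1b and Cdkn2d lead in Asrij low at 16.3 CPM per kb each.

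The kinases and cyclins that CIP proteins restrain rose together. All 8 genes of this list were higher in Asrij high (median log2 fold change 2.80, against -0.02 over all genes tested). The cyclin E gene Ccne1, a partner of CDK2 at entry into S phase, had 88.8 ± 29.3 CPM in Asrij high cells, against 5.46 ± 2.44 CPM in Asrij low cells (log2 4.03 ± 0.38 SE, edgeR adjusted p = 0.00023). Ccne2 rose by 2.29, the cyclin A gene Ccna2 by 3.16, the mitotic cyclin genes Ccnb1 and Ccnb2 by 3.62 and 2.88, and the mitotic kinase gene Cdk1 by 2.73. Cdk2 itself rose least, with 97.8 ± 2.13 CPM in Asrij high cells, against 67.6 ± 4.85 CPM in Asrij low cells (log2 0.53 ± 0.14 SE, edgeR adjusted p = 0.0166). Cdk2 and Ccna1 (log2 1.06, adjusted p = 0.0357) were the genes of this list that lost their calls. Cdk2 did so under library totals (0.234), upper quartile factors (0.17) and without Asrij high replicate 1 (0.0834) or 3 (0.0975) or Asrij low replicate 3 (0.0527), and in the fit lacking both Asrij low replicate 3 and Asrij high replicate 2 (0.0503). Ccna1 did so under both scalings (0.119 and 0.0868) and without Asrij high replicate 1, 2 or 3 (0.0896, 0.0537 and 0.128) or Asrij low replicate 1 or 3 (0.0699 and 0.0642), and in the fit lacking both Asrij low replicate 3 and Asrij high replicate 2 (0.0711). Over the 14 alternatives 6 to 8 of the 8 were called higher and 0 lower.

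The partners of INK4 proteins did not move as 1 group. Of 5 genes, Cdk4 rose and Ccnd2 fell, and 3 were not called (median log2 fold change -0.20). That is 20.0% in each direction, against 21.7% higher and 17.7% lower over all genes tested. Cdk4 had 375 ± 31.0 CPM in Asrij high cells, against 159 ± 26.5 CPM in Asrij low cells (log2 1.24 ± 0.18 SE, edgeR adjusted p = 0.000981). Cdk6 had 1153 ± 158 CPM in Asrij high cells, against 1328 ± 286 CPM in Asrij low cells (adjusted p = 0.485). The cyclin D2 gene Ccnd2 had 269 ± 86.6 CPM in Asrij high cells, against 475 ± 120 CPM in Asrij low cells (log2 -0.82 ± 0.27 SE, adjusted p = 0.0363), with overlapping libraries. This call was lost without Asrij high replicate 1 or 3 (0.0746 and 0.0819) or Asrij low replicate 1 or 2 (0.125 and 0.116). Ccnd1 had 23.9 ± 12.4 CPM in Asrij high cells, against 33.7 ± 5.43 CPM in Asrij low cells (adjusted p = 0.272), and Ccnd3 had 165 ± 3.52 CPM in Asrij high cells, against 152 ± 31.2 CPM in Asrij low cells (0.623). Ccnd1 was called lower without Asrij high replicate 2 (0.0138). In the fit that lacked both Asrij low replicate 3 and Asrij high replicate 2, Ccnd1 (0.0164), Ccnd2 and Cdk6 (0.0378) were all called lower.

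**Figure D4:**
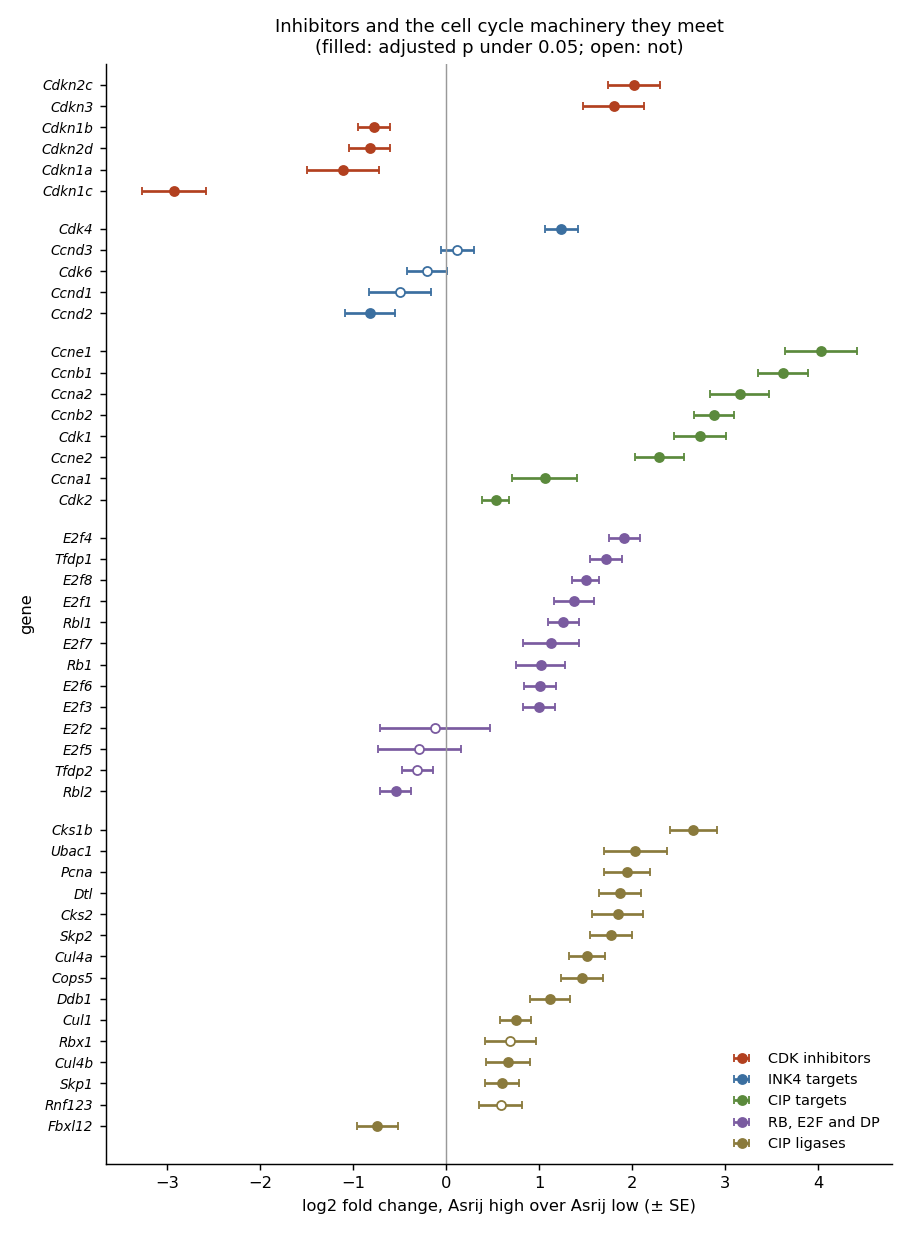
Log2 fold changes of Asrij high over Asrij low with SE for tested CDK inhibitor genes, the partners of INK4 and CIP proteins, RB, E2F and DP genes, and ubiquitin ligase genes for CIP proteins. Filled points have an edgeR adjusted p under 0.05. Cdkn1c lies at -2.92 and Cdkn2c at 2.02, and all 8 CIP partners lie above 0.

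Downstream, 9 of 13 genes for pocket proteins, E2F and DP factors rose and 1 fell (median 1.02). E2f4 (log2 1.91), Tfdp1 (1.72), the atypical repressor gene E2f8 (1.5) and Rbl1, which encodes p107 (1.26), rose with edgeR adjusted p from 0.000204 to 0.00071. The fall was that of Rbl2, the pocket protein gene linked to resting cells, with 60.3 ± 4.26 CPM in Asrij high cells, against 87.6 ± 12.6 CPM in Asrij low cells (log2 -0.54, adjusted p = 0.0283). It was not called without Asrij high replicate 1 or 3 (0.0848 and 0.0637), without Asrij low replicate 1 or 2 (0.122 and 0.0698) or without a count filter (0.0829). Among 25 proliferation genes 24 rose and 0 fell (median 2.59), led by p-value by Cdc20 (3.0), Mybl2 (3.0), Cdc6 (3.22) and Aurka (2.96). The list's remaining gene, Cdc25b, was not called (adjusted p = 0.234). It was called lower without Asrij low replicate 2 (0.0336).

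Genes that act on the inhibitor proteins after translation were mostly higher. Of 15 genes for ubiquitin ligases of CIP proteins and their cofactors, 12 rose and 1 fell (median 1.46), and 10 to 14 rose over the alternatives. Skp2, the F-box protein gene whose product marks p27 for degradation, had 34.7 ± 5.14 CPM in Asrij high cells, against 10.1 ± 1.71 CPM in Asrij low cells (log2 1.77 ± 0.23 SE, edgeR adjusted p = 0.000652). Its cofactor gene Cks1b had 55.5 ± 9.36 CPM in Asrij high cells, against 8.82 ± 2.20 CPM in Asrij low cells (log2 2.66 ± 0.26 SE, adjusted p = 0.000235). Dtl, the CUL4 adaptor gene for p21 (1.87), and Pcna, on which p21 is marked (1.94), rose as well. Pcna is also counted among the proliferation genes above, so these lists are not fully separate. The fall was that of the F-box gene Fbxl12 (-0.74, adjusted p = 0.0257), which was not called without Asrij high replicate 1 or 3 (0.0843 and 0.0779) or Asrij low replicate 1 or 3 (0.097 and 0.068). Protein levels were not measured.

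Genes known to activate CDK inhibitor transcription had 1 rise and 7 falls among 16 tested (median -0.74). Smad4 and Smad3, effectors of TGF-beta, fell by 1.19 and 1.06 on the log2 scale, Klf6 fell by 1.15 and Foxo1 by 1.39 (edgeR adjusted p from 0.00186 to 0.00355). The rise was that of Trp53, which encodes p53 (log2 0.55, adjusted p = 0.0236). It lost its call under library totals (0.262), upper quartile factors (0.178), without Asrij high replicate 1 or 3 (0.118 and 0.0672), without Asrij low replicate 3 (0.0877), and in the fit lacking both Asrij low replicate 3 and Asrij high replicate 2 (0.09). The p53 targets other than Cdkn1a had 6 rises and 8 falls among 24 (median -0.61). Aen rose (1.0) while Trp53inp1 (-2.13), Trp53i11 (-2.78) and Btg2 (-1.60) fell. The 6 rises shrank to 2 under library totals or upper quartile factors and without Asrij high replicate 1 or 3 or Asrij low replicate 3. They were 3 without Asrij low replicate 1 or in the fit lacking Asrij low replicate 3 and Asrij high replicate 2, and 4 without Asrij high replicate 2.

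Genes known to repress CDK inhibitor genes were divided: of 20 tested, 7 rose and 5 fell (median 0.20). Ezh2 and Suz12, of Polycomb complex 2, rose by 1.95 and 1.35, and the DNA methyltransferase gene Dnmt1 rose by 1.38, whereas Cbx7, of Polycomb complex 1, fell by 1.27. Bmi1, the known repressor of Cdkn2a, had 49.8 ± 1.55 CPM in Asrij high cells, against 40.3 ± 8.76 CPM in Asrij low cells (edgeR adjusted p = 0.241). Bmi1 was called higher without Asrij low replicate 2 (0.0391). The list's median changed sign under library totals (-0.06) and upper quartile factors (-0.08). Its falls were 3 without a count filter, without Asrij high replicate 1 or without any single Asrij low library, and 2 without Asrij high replicate 3.

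Around Cdkn1c, the genes of the imprinted region and its flanks had 3 rises and 3 falls among 18 tested (median 0.00). That is 16.7% in each direction, against 21.7% higher and 17.7% lower over all genes tested. Cars (1.84) and Nap1l4 (1.01) rose and Igf2 (-3.28) and Osbpl5 (-2.27) fell, with edgeR adjusted p from 0.00112 to 0.0142. Igf2 had 0.367 ± 0.135 CPM in Asrij high cells, against 3.61 ± 0.937 CPM in Asrij low cells. Slc22a18, another gene of the Cdkn1c domain, had 1.66 ± 1.70 CPM in Asrij high cells, against 7.5 ± 0.816 CPM in Asrij low cells (log2 -2.18, adjusted p = 0.0269). The long noncoding RNA Kcnq1ot1, which silences this domain on the paternal copy, had 198 ± 57.7 CPM in Asrij high cells, against 249 ± 82.5 CPM in Asrij low cells (adjusted p = 0.375). Osbpl5 lost its call without Asrij high replicate 3 (0.0515) or Asrij low replicate 2 (0.0543). Slc22a18 lost its own without Asrij high replicate 1 or 3 (0.0567 and 0.0711) or Asrij low replicate 1 or 2 (0.0783 and 0.0558). Over alternatives the list gave 2 to 5 rises and 1 to 6 falls.

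Of 14 other genes that bind or control CDKs, 6 rose and 1 fell (median 0.35). The rises included the inhibitory kinase gene Pkmyt1 (log2 1.81), Bccip, whose product binds p21 (1.31), Ccnh, the cyclin of the CDK-activating kinase (1.18), and Cdkn2aipnl (1.14), with edgeR adjusted p from 0.00105 to 0.00296. The fall was that of Ccndbp1, whose product binds cyclin D1 (-0.75, adjusted p = 0.00739).

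For each tested member the 3 genes with the most similar profile were taken among tested genes with a mean of at least 1 CPM, unnamed gene models and pseudogenes left out, by the root mean square (RMS) difference of mean-centred log2 CPM over the 6 libraries. Foxo3, which encodes a forkhead factor known to maintain HSCs, was nearest to Cdkn1b (RMS difference 0.043), before Grk2 (0.0491) and Chd6 (0.053). Foxo3 had 209 ± 22.9 CPM in Asrij high cells, against 342 ± 33.3 CPM in Asrij low cells (log2 -0.71 ± 0.16 SE, edgeR adjusted p = 0.00778). Cdkn1c was nearest to Pde9a (0.115), Fmn1 (0.162) and Ggt5 (0.193), and Cdkn1a to Gmfg (0.0723), Klhl6 (0.0741) and Tnfaip8 (0.0787). Cdkn2c was nearest to Tnk2os (0.102), Tspan33 (0.12) and Ccdc18 (0.149), and Cdkn2d to Ssh1 (0.0449), Star (0.0672) and Dennd11 (0.0822), of which Star was not called (edgeR adjusted p = 0.0533). Cdkn3 was nearest to Wdr55 (0.0426) and to Nop9 (0.0628) and Bysl (0.0635), whose products act in ribosome assembly. These distances describe 6 libraries in 2 groups and rank 12768 candidates.

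**Figure D5:**
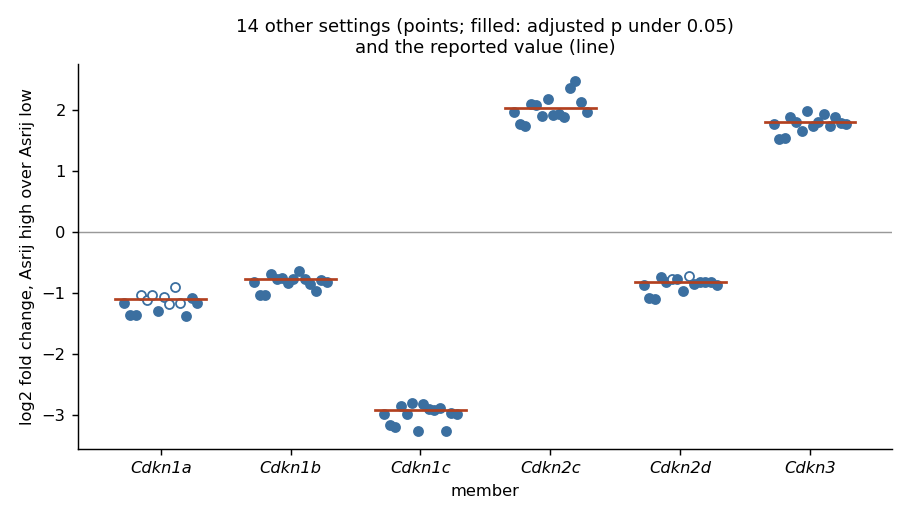
Log2 fold change of Asrij high over Asrij low for the 6 tested members under 14 alternative settings (points, filled where the adjusted p is under 0.05) and as reported (line). No member crosses 0, and open points occur for Cdkn1a and Cdkn2d.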

How the data were processed

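RNA of sorted long-term HSCs was measured in 6 libraries. Per the labels' protocols, ribosomal RNA was depleted and a directional kit was used, while the molecule field names polyA RNA. The values the authors deposited are raw counts, 1 whole number for each gene symbol and library. Per the submitters' processing notes, the tools were FastQC, HISAT2, SAMtools and Subread and the build was mm10. The sources used here do not give their versions, the annotation, the strand setting or the handling of reads with several hits.

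Counts were analysed in R 4.3.3 with the quasi-likelihood test of edgeR 4.0.16 (TMM factors, robust dispersions, group as the only term) on 21445 of 49997 genes kept by filterByExpr (minimum count 10, minimum total 15), with Benjamini-Hochberg adjustment over all genes tested and a threshold of 0.05. SEs were derived from the test statistic. Alternatives used DESeq2 1.42.0, limma 3.58.1 (voom), other scalings, no filter, a block and left-out libraries. Ratios and shares were tested by exact permutation (scipy 1.17.1), and the ratio had 0.5 added to each count. Levels per kb used exon lengths of GENCODE M21 (GRCm38).

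The members and gene lists were chosen with earlier results of these data known. Named genes are the members, Ociad1, all partners of INK4 and CIP proteins, up to 4 genes of each other list that passed the threshold with the lowest p, and the 3 genes nearest to each called member. Rbl2, Fbxl12, Trp53, Slc22a18, Kcnq1ot1, Bmi1, Cdc25b and Ccndbp1 were named after their values were seen. In counts simulated from this comparison, 20806 genes were tested. Of the genes changed, 6 of 65 at 2-fold, 41 of 67 at 4-fold and 52 of 63 at 8-fold were recovered. A 2-fold change was thus often missed there. Far fewer genes were changed in the simulation than the 8452 called here. The adjusted p depends on that number, so these shares need not hold for the calls above. Libraries of the same group differed by more than sampling noise in every pair, with a chi-square of 75.3 to 168 for each degree of freedom.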

Additional observations from a re-analysis of the deposited data

How the results depend on the processing

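Over 14 alternatives, the log2 fold changes of Cdkn1b, Cdkn1c, Cdkn2c and Cdkn3 kept their direction and their calls. Leaving out single libraries, Cdkn1a ran from -1.31 to -0.91 and Cdkn2d from -0.98 to -0.74. Cdkn1a was at -1.04 without a filter on low counts (adjusted p = 0.108). Whether the replicate numbers pair the libraries could not be settled from deviations within groups of 3. Same-numbered deviations correlated at 0.0126, 0.046 and 0.225, and others at -0.158 to 0.0997. Not every library was closest to its own number. With the replicate number as a block Cdkn1a was at -1.12 (adjusted p = 0.0565), 5 members were called in place of 6, Rbl2 lost its call (0.0528), and 8088 genes were called. Without single libraries 5481 to 8935 genes were called over all genes, 2346 to 3752 of them lower, and 2 to 4 members were called lower. The difference in the share of Cdkn1a in CIP counts changed sign among these (-1.18 to 0.17 percentage points). The cause of these changes was not tested. The smaller totals of Asrij low limit low genes: 3 counts amounted to 0.116 CPM in its smallest library and 0.0455 CPM in the largest library of Asrij high.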
